A study of Mus musculus with 6 samples.

Results

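The transcripts described here encode the constitutive 26S proteasome. Members were the genes listed in the tables whose symbols are Psma, Psmc or Psmd with a number, or Psmb1 to Psmb7, which gave 35 of 17067 genes: 15 of the core particle (Psma and Psmb) and 20 of the regulatory particle (Psmc and Psmd). They were measured by RNA-seq in macrophages (CD45+CD11b+F4/80+, isolated by FACS) of the inflamed colon, with 3 samples from Gsdmd-/- and 3 from wild-type (WT) mice, all C57BL/6 and aged 10 weeks. Both genotypes had been given DSS (dextran sulfate sodium, a polymer that injures the colon lining) to induce colitis. Gsdmd encodes gasdermin D, which forms the membrane pore of pyroptosis. The sources used here do not say in which cells Gsdmd is lost, whether each sample came from 1 mouse or from a pool, or whether the mice were littermates.

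The proteasome degrades proteins that carry ubiquitin chains. Its core particle is a barrel of stacked rings, in which alpha subunits form the gated outer rings and beta subunits the inner rings that hold the peptide-cutting sites. The regulatory particle caps the barrel: ATPases of its base unfold the substrate and thread it inward, receptors recognise ubiquitin, and an enzyme of the lid removes it. In macrophages, interferon-induced subunits can take the place of the constitutive catalytic ones, and the peptides made by the proteasome feed MHC class I presentation.

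The deposited values were read as FPKM (fragments scaled to the length of the transcript and the depth of the library). Depth, estimated from the steps between low values, was 20.4 M to 20.6 M fragments in Gsdmd-/- and 20 M to 20.5 M in WT samples. Gsdmd itself was at 28.5, 29.0 and 29.7 FPKM in Gsdmd-/- samples, against 97.7, 99.4 and 97.4 FPKM in WT samples (log2 change -1.72). The 7 macrophage markers summed to 3095 to 3162 FPKM in Gsdmd-/- and 2860 to 3001 FPKM in WT samples (Ptprc, Itgam, Adgre1, Csf1r, Cd68, Fcgr1 and Mertk), of which 2 rose and 5 fell. Markers of several cell types outside the sorting gate were low and differed with genotype. Of 11 fibroblast markers 10 were listed, and all 7 that were tested rose, with a summed level of 88.5 to 90.6 FPKM in Gsdmd-/- and 32.7 to 34.4 FPKM in WT samples; Lum, Pdgfra and Fbln1 were under 1 FPKM in every sample. Of 4 endothelial markers 3 were tested, 1 fell and 0 rose, with a summed level of 33.0 to 38.4 FPKM in Gsdmd-/- and 62.5 to 66.6 FPKM in WT samples. Of 4 smooth muscle markers 2 were tested and both rose, with a summed level of 11.02 to 12.2 FPKM in Gsdmd-/- and 1.96 to 3.91 FPKM in WT samples. Among the other lists, the 1 neutrophil and the 1 T and NK cell marker tested rose, the 1 epithelial and both eosinophil and mast cell markers tested fell, the 1 dendritic cell marker tested did not pass, and 0 of 6 B and plasma cell markers were tested; their summed levels were 0.430 to 6.09 FPKM in Gsdmd-/- and 0.230 to 6.42 FPKM in WT samples. Of 8 proliferation genes 6 rose and 1 fell, with a summed level of 347 to 357 FPKM in Gsdmd-/- and 297 to 299.6 FPKM in WT samples. Their part in the results below was not tested, and in sorted bulk samples fewer cells of a type and less RNA per cell cannot be told apart.

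Proteasome transcripts were mostly higher in Gsdmd-/- macrophages. Of 34 members tested, 27 rose and 2 fell, while over all 10005 genes tested 40.6% rose and 36.9% fell, 77.5% in either direction (limma, adjusted p under 0.05 over all genes). The median log2 change was 0.37 for the core particle and 0.37 for the regulatory particle, beside 0.03 over all genes. The groups did not overlap for 30 members that were higher and 2 that were lower in Gsdmd-/- samples, where 41.2% and 38.3% of all genes were so, 79.4% in either direction. The summed level of the tested members was 3404, 3417 and 3365 FPKM in Gsdmd-/- samples, against 2610.4, 2609 and 2582 FPKM in WT samples. As a share of the sum over all genes in a sample this was 0.604% to 0.610% in Gsdmd-/- and 0.537% to 0.548% in WT samples. The summed level in Gsdmd-/- samples was 1.31 times that in WT samples for the core and 1.30 times for the regulatory particle. Rescaled to TPM, which sets every sample to the same total and took the median over all genes to -0.17, 21 members rose and 8 fell, beside 25% and 51% of all genes (76% in either direction). Members kept nearly the same order of levels in both genotypes, with a Spearman rho of 0.97 across the 34 genes, which are not independent.

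**Figure D1:**
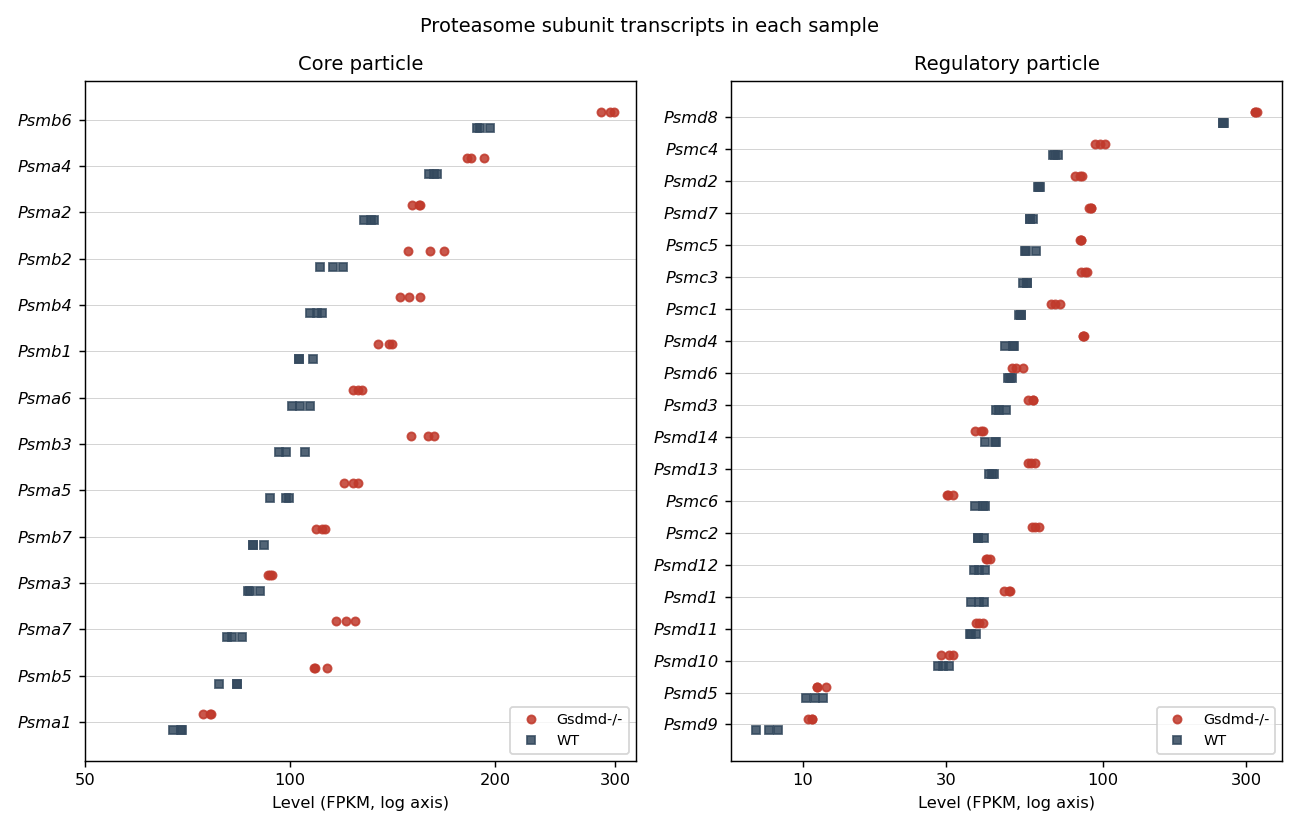
Level of each tested proteasome member in each sample (FPKM, log axis), with the core particle at left and the regulatory particle at right, Gsdmd-/- samples as circles above and WT samples as squares below. Circles lie right of the squares for 30 members and left of them for Psmc6 and Psmd14.

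These changes moved with the base composition of the transcripts, as those of all genes did. Across the tested members, log2 change and transcript GC content had a Spearman rho of 0.75 (n = 34 transcripts measured in the same 6 libraries), beside 0.49 across 9852 tested genes with an annotated transcript. With transcript length, rho was -0.36 across members and -0.62 across all those genes. Member transcripts were short, with a median annotated length of 1468 bases (761 to 4397) beside 2612 bases for all, and their median GC content of 49.3% was near the 50.4% of all genes. A smooth trend on both properties was therefore removed from each sample, and the change that was left is called the trend-adjusted change. On that scale 23 members rose and 2 fell, beside 31.3% and 30.4% of all genes (61.7% in either direction), and the median was 0.09 for the core and 0.17 for the regulatory particle. In all 21 members rose on both scales, 9 of the core and 12 of the regulatory particle. The share of all genes that rose on both is not given here, and it can be at most that 31.3%. Removing the trend on GC content alone, an alternative added after the data were seen, gave 33 members that rose and 0 that fell, beside 37.7% and 35.7% of all genes (73.4% in either direction). Removing the trend on length alone, also added then, gave 20 that rose and 8 that fell, beside 37.3% and 32.2% (69.6% in either direction). The trend lies between the genotypes, so its part in the change of a gene cannot be told apart from that of genotype.

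**Figure D2:**
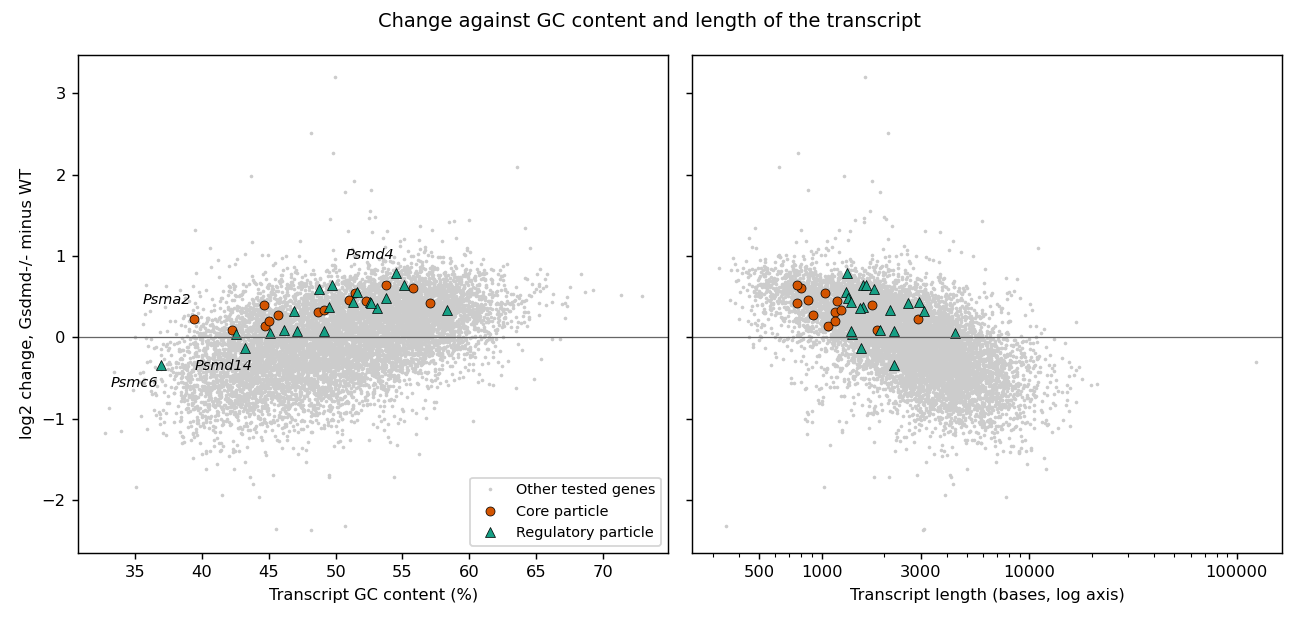
Log2 change (Gsdmd-/- minus WT) of each tested gene against the GC content (left, %) and length (right, bases, log axis) of its annotated transcripts, with core members as circles, regulatory members as triangles and other genes in grey. Psmc6, the member with the lowest GC content (37.0%), fell. Psmd4, at 54.5%, rose most, and Psmd3, the member with the highest GC content (58.3%), rose by 0.34.

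All 7 tested alpha genes rose as deposited, where 40.6% of all genes did, with a median log2 change of 0.23. The ring's count depended on the scale. In TPM 2 rose and 1 fell (median 0.0091), beside 25% and 51% of all genes. With the length trend alone removed 2 rose and 4 fell (median -0.08), beside 37.3% and 32.2% of all genes. Psma7 rose most: it was at 125, 117 and 121 FPKM in Gsdmd-/- samples, against 85.1, 82.2 and 80.8 FPKM in WT samples. Every Gsdmd-/- value lay above every WT value, and the log2 change was 0.54 (SE 0.0338, limma, adjusted p = 3.92e-08). Psma3, which rose least in this ring, was at 93.6, 93.0 and 94.2 FPKM in Gsdmd-/- samples, against 90.4, 86.7 and 87.4 FPKM in WT samples. The groups were apart, but the log2 change was 0.09 (limma, adjusted p = 0.0195), and in TPM it was -0.14. Psma5 and Psma6 rose by 0.34 and 0.28 on the log2 scale, and Psma4 and Psma1 by 0.20 and 0.14.

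Within the core, Psma2 stood apart once the trend was taken out. It was at 155, 151 and 154 FPKM in Gsdmd-/- samples, against 133, 128 and 131 FPKM in WT samples, a log2 change of 0.23 (SE 0.028, limma, adjusted p = 1.08e-05). In TPM the change of Psma2 was 0.0091 and did not pass (limma, adjusted p = 0.807). Its annotated transcript is long (2911 bases) and has a GC content of 39.4%, the lowest in the core, and its trend-adjusted change was 0.60 (limma, adjusted p = 8.86e-09), the largest of the tested members. The change of Psma2 was 0.65 with the GC trend alone removed and 0.30 with the length trend alone removed. In the other direction, the trend-adjusted changes of Psma1 (-0.01) and Psma6 (0.06) did not pass the test. Psma8, the alpha subunit of sperm-forming cells, was the member that did not enter the test: it was at 0.340, 0.440 and 0.670 FPKM in Gsdmd-/- samples, against 0.760, 0.480 and 0.920 FPKM in WT samples, and the groups overlapped.

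In the beta ring all 7 members rose as deposited, where 40.6% of all genes did, with a median log2 change of 0.45. Psmb3, a subunit without a cutting site, was at 159, 163 and 150.4 FPKM in Gsdmd-/- samples, against 96.3, 105 and 98.7 FPKM in WT samples (log2 change 0.65, SE 0.0393, limma, adjusted p = 3.06e-08). Psmb6, which cuts after acidic residues, was the most abundant core transcript, at 294, 299 and 286 FPKM in Gsdmd-/- samples, against 188, 197 and 190.1 FPKM in WT samples. It rose by 0.61 on the log2 scale (SE 0.0287, limma, adjusted p = 4.75e-09), and the groups did not overlap. Psmb2, Psmb4 and Psmb1, which have no cutting site, rose by 0.46, 0.45 and 0.40.

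The other catalytic subunits also rose. Psmb5, which cuts after hydrophobic residues, was at 109, 108 and 113 FPKM in Gsdmd-/- samples, against 83.6, 83.5 and 78.6 FPKM in WT samples (log2 change 0.42, SE 0.0342). Psmb7, which cuts after basic residues, was at 113, 111 and 109 FPKM in Gsdmd-/- samples, against 91.5, 88.1 and 88.2 FPKM in WT samples (log2 change 0.31, SE 0.0299). In both genes the groups were apart. With the trend removed the order changed: Psmb1 kept a change of 0.40, Psmb3 was left with 0.13, Psmb6 with 0.04 (limma, adjusted p = 0.0892) and Psmb5 fell, with -0.19 (SE 0.0398, limma, adjusted p = 0.00159). The Psmb5 transcript is the shortest of the tested members (761 bases) and has the highest GC content in the core (57.1%). It is also almost the same in sequence as a pseudogene, Gm3375 (98.9% identity over 88.4% of the transcript), so its value is uncertain; Psmb3 has 7 such copies.

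**Figure D3:**
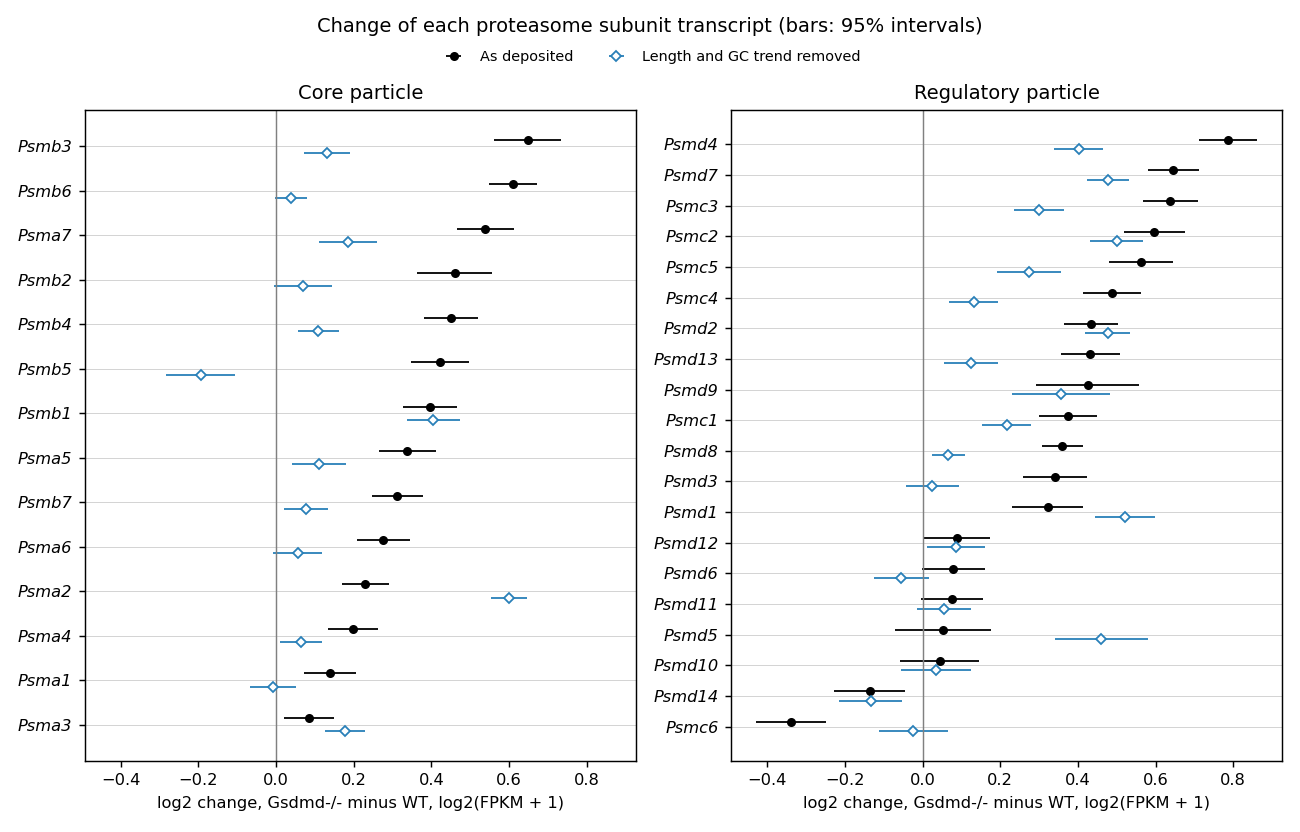
Log2 change of each tested member (Gsdmd-/- minus WT on the log2(FPKM + 1) scale) with 95% intervals from limma, as deposited (filled circles) and trend-adjusted for transcript length and GC content (open diamonds). Psma2, Psmd1 and Psmd5 are among the members with larger changes without the trend than with it, and Psma1, Psmb5 and Psmd6 lie on opposite sides of 0.

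Each catalytic subunit has an interferon-induced counterpart that can take its place, and the balance between them differed by pair. Psmb9 over Psmb6 was 0.689, 0.702 and 0.711 in Gsdmd-/- samples, against 0.814, 0.832 and 0.822 in WT samples. Psmb10 over Psmb7 was 3.17, 3.26 and 3.25 in Gsdmd-/- samples, against 2.29, 2.60 and 2.47 in WT samples. So the first ratio was lower and the second higher in every Gsdmd-/- sample. Their log2 differences were -0.23 and 0.40 (exact two-sided permutation p = 0.1 for each, the smallest that 3 samples against 3 allow, and 0.15 adjusted over the 3 ratios). Psmb8 over Psmb5 was 3.15, 3.12 and 2.96 in Gsdmd-/- samples, against 2.98, 3.07 and 3.18 in WT samples, and the groups overlapped (exact permutation p = 1). After trend removal the log2 differences were -0.065 for Psmb9 over Psmb6, 0.18 for Psmb10 over Psmb7 and 0.26 for Psmb8 over Psmb5, with the groups apart in each (exact permutation p = 0.1).

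**Figure D4:**
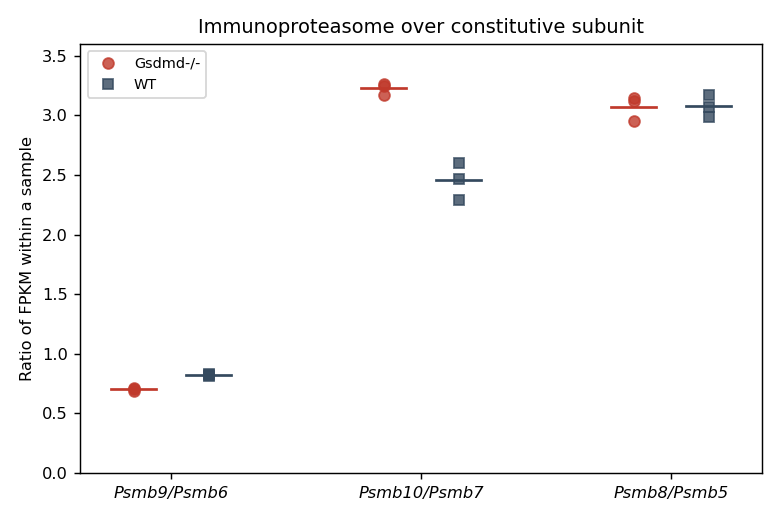
Ratio of the FPKM of each immunoproteasome subunit to that of the constitutive subunit it can replace, in each sample, with Gsdmd-/- samples (circles) left of WT samples (squares) and horizontal lines at the group means. The Psmb9/Psmb6 ratios are lower and the Psmb10/Psmb7 ratios higher in Gsdmd-/- samples, and the Psmb8/Psmb5 ratios overlap.

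Among the ATPases of the regulatory base, 5 of 6 rose and Psmc6 fell, where 40.6% and 36.9% of all genes rose and fell. Psmc3 was at 84.3, 87.3 and 88.4 FPKM in Gsdmd-/- samples, against 56.0, 55.8 and 54.2 FPKM in WT samples (log2 change 0.64, SE 0.0325, limma, adjusted p = 8.11e-09). Psmc2 was at 58.1, 61.2 and 59.5 FPKM in Gsdmd-/- samples, against 38.5, 40.3 and 38.5 FPKM in WT samples (log2 change 0.60, SE 0.036). Psmc5, Psmc4 and Psmc1 rose by 0.56, 0.49 and 0.38. These 5 genes also rose on the trend-adjusted scale, where 31.3% of all genes did. Psmc2 had the largest change of the 5 there (0.50) and Psmc4 the smallest (0.13).

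Psmc6 was the exception. It was at 30.4, 30.2 and 31.7 FPKM in Gsdmd-/- samples, against 39.8, 40.4 and 37.4 FPKM in WT samples, so that it was the lowest ATPase transcript in Gsdmd-/- samples and close to Psmc2 in WT samples. The log2 change was -0.34 (SE 0.0409, limma, adjusted p = 1.03e-05). Its trend-adjusted change was -0.02 (95% interval -0.11 to 0.06, limma, adjusted p = 0.620), and it was 0.17 with the GC trend alone removed and -0.42 with the length trend alone removed.

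The 3 base subunits without ATPase activity rose as deposited and on the trend-adjusted scale, where 40.6% and 31.3% of all genes did. Psmd4, a ubiquitin receptor, rose most of all members tested: it was at 86.1, 86.2 and 85.5 FPKM in Gsdmd-/- samples, against 47.4, 50.7 and 50.1 FPKM in WT samples. The log2 change was 0.79 (SE 0.0342, limma, adjusted p = 3.05e-09), a 1.74-fold level, and the trend-adjusted change 0.40. Psmd2, a scaffold that docks ubiquitin-like domains, was at 83.6, 80.6 and 85.1 FPKM in Gsdmd-/- samples, against 60.7, 61.9 and 61.2 FPKM in WT samples (log2 change 0.43, trend-adjusted 0.48). It has a transcribed pseudogene copy, Gm5422 (96.3% identity over 98.2% of the transcript), which could share its reads. Psmd1, the other large scaffold, was at 48.7, 46.9 and 48.9 FPKM in Gsdmd-/- samples, against 40.2, 36.3 and 38.5 FPKM in WT samples (log2 change 0.32, trend-adjusted 0.52), and in TPM its change of 0.11 did not pass (limma, adjusted p = 0.0555). Both scaffold transcripts are long (2961 and 3112 bases), and the groups were apart for all 3 genes.

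To show the start regions of the members with the highest and the lowest change, the 250 bases before the annotated start of Psmd4 and Psmc6 are given from the RefSeq promoter table of GRCm38.p6. Letters in capitals match TGACNNNGC, a core of the antioxidant response element that the factor Nfe2l1 (also called Nrf1) is known to bind in proteasome promoters, or CCAAT, the NF-Y box, on either strand. Psmd4 (chr3:95042615-95042864, minus strand) holds 1 CCAAT match and Psmc6 (chr14:45329574-45329823, plus strand) 1 TGACNNNGC match.
Psmd4: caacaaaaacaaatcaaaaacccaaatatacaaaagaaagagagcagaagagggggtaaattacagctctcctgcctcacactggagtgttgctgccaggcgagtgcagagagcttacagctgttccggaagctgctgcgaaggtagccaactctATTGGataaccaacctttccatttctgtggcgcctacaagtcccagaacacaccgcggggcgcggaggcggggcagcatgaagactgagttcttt
Psmc6: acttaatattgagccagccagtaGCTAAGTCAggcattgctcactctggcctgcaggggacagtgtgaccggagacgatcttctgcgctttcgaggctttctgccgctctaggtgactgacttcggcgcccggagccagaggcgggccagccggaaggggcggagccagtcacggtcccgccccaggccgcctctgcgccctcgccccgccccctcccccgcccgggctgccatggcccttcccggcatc
Of 35 members, 28 were found in the table. TGACNNNGC was present in 5 of these (17.9%), beside 14.2% of 8113 tested genes in the table and 11.5% of all 27025 genes in it. CCAAT was present in 11 (39.3%), beside 40.5% of those tested genes and 37.5% of all. These are matches of letters only. The 5 members with TGACNNNGC are shown with up to 12 bases on either side (motif in capitals), since they include the catalytic subunits Psmb5 and Psmb6.
Psmb5: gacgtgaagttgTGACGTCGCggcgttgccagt
Psmb6: gactaaagagagTGACGGAGC
Psmc6: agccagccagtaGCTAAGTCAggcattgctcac
Psmd9: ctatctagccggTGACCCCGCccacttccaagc
Psmd12: tctGCTGTGTCAcatttgcccccc
These windows lie in GRCm38.p6, Psmb5 at chr14:54618022-54618054 (minus strand), Psmb6 at chr11:70525336-70525356 (plus strand), Psmc6 at chr14:45329585-45329617 (plus strand), Psmd9 at chr5:123228147-123228179 (plus strand) and Psmd12 at chr11:107479278-107479301 (plus strand), each printed on the strand of its gene. The Psmb6 window lies before the start used for its promoter, but inside the annotated span of the gene, which begins at position 70525324. The log2 changes of these 5 genes as deposited were 0.42, 0.61, -0.34, 0.42 and 0.09.

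Of 8 lid members 4 rose, 1 fell and 3 did not pass the test, a share of higher calls near the 40.6% of all genes, with a median log2 change of 0.21. With the GC trend alone removed 7 rose and 0 fell, beside 37.7% and 35.7% of all genes. In TPM 4 rose and 4 fell (median -0.0035), beside 25% and 51% of all genes. Psmd7 was at 91.0, 91.0 and 89.5 FPKM in Gsdmd-/- samples, against 57.0, 57.0 and 58.4 FPKM in WT samples, with no overlap (log2 change 0.65, SE 0.0298, limma, adjusted p = 4.29e-09). Psmd14, the enzyme that cuts ubiquitin chains off the substrate and works as a dimer with Psmd7, was at 37.5, 39.2 and 39.9 FPKM in Gsdmd-/- samples, against 44.0, 40.6 and 43.8 FPKM in WT samples. Its log2 change was -0.14 (SE 0.0419, limma, adjusted p = 0.0107), and -0.13 on the trend-adjusted scale, and its lowest WT value lay close to its highest Gsdmd-/- value. With the GC trend alone removed Psmd14 rose instead, by 0.14 (limma, adjusted p = 0.00502), and with the length trend alone removed its change was -0.37. Without Gsdmd-/- replicate 1 the call of Psmd14 was lost (log2 change -0.11, limma, adjusted p = 0.0547).

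Psmd8 was the most abundant transcript of the regulatory particle, at 327, 321 and 322 FPKM in Gsdmd-/- samples, against 252, 252 and 251 FPKM in WT samples. It rose by 0.36 on the log2 scale (SE 0.0242), and by 0.07 with the trend removed. Psmd13 and Psmd3 rose by 0.43 and 0.34 as deposited. With the trend removed Psmd13 was left with 0.13, and Psmd3, at 0.03, did not pass (limma, adjusted p = 0.498). Psmd6, Psmd11 and Psmd12 had log2 changes of 0.08, 0.08 and 0.09 that did not pass (95% intervals -0.0022 to 0.16, -0.0044 to 0.16 and 0.0035 to 0.17), although each was higher in every Gsdmd-/- sample than in any WT sample. In TPM these 3 genes fell, by 0.14, 0.14 and 0.13.

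The genes numbered Psmd5, Psmd9 and Psmd10 encode chaperones that hold ATPases during assembly and leave before the particle is complete. Psmd9 was at 10.4, 10.7 and 10.7 FPKM in Gsdmd-/- samples, against 7.71, 8.29 and 7.0 FPKM in WT samples, and rose by 0.42 on the log2 scale (SE 0.0606, limma, adjusted p = 4.23e-05). Psmd5 was at 11.1, 12 and 11.1 FPKM in Gsdmd-/- samples, against 11.7, 10.3 and 11 FPKM in WT samples, and the groups overlapped (log2 change 0.05, limma, adjusted p = 0.404). Its transcript is the longest of the members (4397 bases), and its trend-adjusted change of 0.46 passed the test (limma, adjusted p = 3.30e-05). Psmd10, known as gankyrin, was at 31.7, 30.6 and 28.9 FPKM in Gsdmd-/- samples, against 30.8, 28.1 and 29.4 FPKM in WT samples, and passed on neither scale.

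Of 47 other genes of the pathway 23 rose and 19 fell as deposited, where 40.6% and 36.9% of all genes did. With the trend removed 21 rose and 17 fell, where 31.3% and 30.4% of all genes did. In TPM 18 rose and 23 fell (median log2 change -0.11), beside 25% and 51% of all genes. Of the other assembly factors all 5 listed rose (median log2 change 0.54), among them Psmg4, at 30.8, 29.6 and 29.1 FPKM in Gsdmd-/- samples, against 18.1, 20.2 and 19.2 FPKM in WT samples (log2 change 0.61). Psmg3 and Psmg1 rose by 0.55 and 0.54. With the trend removed 3 of the 5 rose, and Psmg4 (-0.05) and Psmg3 (-0.02) did not pass. All 3 immunoproteasome genes rose as deposited (Psmb10 by 0.71, Psmb8 by 0.43 and Psmb9 by 0.38), and 2 with the trend removed, where Psmb9 was at -0.03.

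As deposited, the activators differed by kind. Psme1 and Psme2, the interferon-induced cap that opens the core without ATP, rose by 0.55 and 0.55 (trend-adjusted 0.08 and 0.14). Psme4, another ATP-independent cap, was at 12.2, 12.6 and 13.0 FPKM in Gsdmd-/- samples, against 19.5, 18.8 and 19.0 FPKM in WT samples (log2 change -0.56, trend-adjusted 0.01). In all, 3 activator or inhibitor genes rose and 2 fell as deposited, beside 40.6% and 36.9% of all genes. With the trend removed 3 rose and 1 fell, beside 31.3% and 30.4% of all genes. Of 7 further subunits and bound enzymes 2 rose and 3 fell as deposited, beside 40.6% and 36.9% of all genes. With the trend removed 4 of these 7 rose and 1 fell, beside 31.3% and 30.4% of all genes. The subunit genes Sem1 and Adrm1 rose by 0.63 and 0.41 as deposited, and Ube3c, a ligase bound to the proteasome, fell by 0.57. Adrm1 was at -0.05 with the trend removed and did not pass there.

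**Figure D5:**
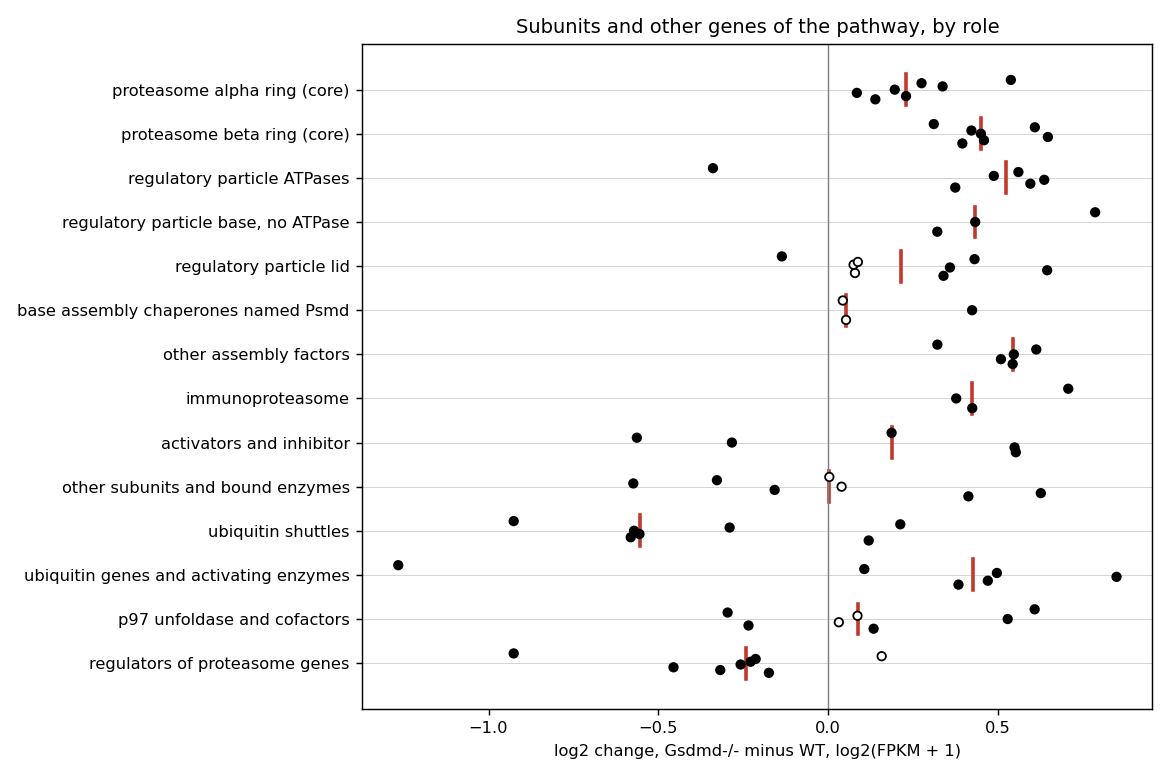
Log2 change (Gsdmd-/- minus WT) of each tested member and of the other listed pathway genes, by role, with filled points for an adjusted p under 0.05 and a red line at the median of each list. The regulators of proteasome genes apart from Maff, and 5 of 7 ubiquitin shuttles, lie left of 0, and the core rings lie right of it; Ddi2 is in both of those lists.

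Ubiquitin shuttles bring substrates to the proteasome. Of 7 listed 5 fell and 2 rose as deposited (median log2 change -0.56), where 36.9% and 40.6% of all genes did, and 6 fell and 1 rose with the trend removed (median -0.31), where 30.4% and 31.3% did. Ddi2, a shuttle that is also the protease that activates Nfe2l1, was at 4.68, 3.18 and 4.87 FPKM in Gsdmd-/- samples, against 9.60, 9.14 and 7.89 FPKM in WT samples (log2 change -0.93, trend-adjusted -0.54). Rad23b and Ubqln2 fell by 0.58 and 0.57. Of 6 ubiquitin genes and activating enzymes 5 rose and 1 fell as deposited, beside 40.6% and 36.9% of all genes, and 4 rose and 1 fell with the trend removed. Rps27a, which encodes ubiquitin fused to a ribosomal protein, rose by 0.50 (trend-adjusted 0.12). With the length trend alone removed the change of Rps27a was 0.03 and did not pass (limma, adjusted p = 0.272). Uba6, an activating enzyme, was at 3.08, 3.05 and 3.16 FPKM in Gsdmd-/- samples, against 9.43, 8.24 and 8.92 FPKM in WT samples (log2 change -1.27, trend-adjusted -0.64). Of 7 genes of the p97 unfoldase and its cofactors 3 rose and 2 fell as deposited, beside 40.6% and 36.9% of all genes. In TPM 2 of these 7 rose and 3 fell, beside 25% and 51% of all genes. Ubxn1 and Nsfl1c were higher by 0.61 and 0.53 (trend-adjusted 0.09 and 0.22), and Faf2 was lower by 0.30 (trend-adjusted change -0.19).

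Of 8 known regulators of proteasome genes, Ddi2 among them, 7 fell and 0 rose as deposited (median -0.24), where 36.9% of all genes fell. On the trend-adjusted scale 7 fell and 0 rose (median -0.28), where 30.4% of all genes fell. With the length trend alone removed 6 fell and 0 rose, where 32.2% of all genes fell. Maff, with a log2 change of 0.16, did not pass. Nfe2l1, named outside the rule as the factor best known to drive proteasome genes, was at 38.9, 37.8 and 39.1 FPKM in Gsdmd-/- samples, against 45.0, 43.0 and 43.0 FPKM in WT samples. The groups were apart, with a log2 change of -0.17 (SE 0.0357, limma, adjusted p = 0.000766), a trend-adjusted change of -0.10 and a change of 0.05 with the length trend alone removed. Ngly1, the enzyme that strips sugars from Nfe2l1, fell by 0.45, and Nfe2l2, a related factor of the oxidant response, fell by 0.32 on the log2 scale.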

How the data were processed

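RNA was sequenced on the BGISEQ-500, per the labels' protocols, from 3 Gsdmd-/- and 3 WT samples. The names Bowtie2 (version 2.2.5) and GRCm38.p6 come from the submitters' processing notes. For the tool that made the gene values, its annotation and its use of strand, nothing is stated in these sources. The authors deposited 1 value per gene and sample without naming its unit. These deposited values were read as FPKM, because their sums differ between samples and the smallest steps are finer for longer transcripts. No label states that the samples are from different mice; p-values reflect the spread of these samples alone, part of which may be technical. Read counts implied by the estimated depth gave a chi-square of 1.55 to 2.31 per degree of freedom for pairs within a group. For pairs between groups it was 28 to 37. No sample was treated as a repeat, but these values cannot tell separate mice from separate libraries of 1 RNA pool, since both can exceed counting noise.

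Genes that reached 1 FPKM in 3 or more of the 6 samples were tested with limma 3.58.1 (trend and robust settings, R 4.3.3) on log2(FPKM + 1), with Benjamini-Hochberg adjustment over all 10005 genes; changes on this scale are understated for low genes. "Rose" and "fell" mean an adjusted p under 0.05. Median length and GC content of GENCODE M21 basic coding transcripts were found for 9852 of the tested genes, and spline trends on both were removed per sample. The fit and the trend removal were checked on simulated data. Copies were sought with blastn 2.17.0 (at least 90% identity over 50% of the longest coding transcript), which found 19 for 9 members; 0 of them are listed in the tables. The exons of 9 members overlap another gene, for Psmd9 over 25.5% of its exonic bases. Members, lists and tests were chosen with earlier results of these data known. The genes named are all members, up to 3 genes of each other list with the largest change, and Gsdmd; Nfe2l1 and Maff were named after their values were seen, and 1 gene the rule names is not reported here. No sample was left out of the main test.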

Additional observations from a re-analysis of the deposited data

How the results depend on the processing

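Of the 34 tested members, all had the same direction and side of the threshold with pseudocounts of 0.1 and 0.01, with no filter on low values and with the replicate block (27 rose and 2 fell). The samples share a replicate number alone: correlations of deviations from the group means were -0.08, 0.13 and 0.01 for the 3 pairs, and Gsdmd-/- replicate 3 correlated best with WT replicate 1 (0.16). With a mean of at least 5 FPKM, 28 members rose, Psmd12 among them. Without the filter the core median, with Psma8 in it, was 0.34.

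Rescaled to TPM, 8 members fell, core calls were 9 higher and 1 lower, regulatory calls 7 lower, and the median was 0.15 over all members, in the core and in the regulatory particle. There Psma1 (-0.080), Psma3 (-0.14), Psma4 (-0.024), Psmd5 (-0.16), Psmd6 (-0.14), Psmd10 (-0.17), Psmd11 (-0.14) and Psmd12 (-0.13) changed sign, and Psma2 (0.0091), Psma6 (0.055) and Psmd1 (0.11) did not pass. Medians were 0.33, 0.33 and 0.33 with median-ratio scaling and 0.26, 0.22 and 0.28 with quantile normalization, where Psma3 (-0.017) and Psmd6 (-0.0038) changed sign.

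With the length and GC trend removed, with or without the replicate block, 9 core members rose and 1 fell, 1 regulatory member fell, and medians were 0.12 over all, 0.093 in the core and 0.17 in the regulatory particle. Psma1 (-0.0086), Psmb5 (-0.19), Psmd6 (-0.055), Psmg4 (-0.050), Psmg3 (-0.022), Psmb9 (-0.026), Adrm1 (-0.050) and Psme4 (0.010) changed sign, as did the log2 difference of Psmb8 over Psmb5 (0.26). With the GC trend alone removed, 0 members fell, medians were 0.39, 0.40 and 0.34, and Psmc6 (0.17) and Psmd14 (0.14) changed sign. With the length trend alone removed, 8 members fell, core calls were 6 higher and 4 lower, 4 regulatory members fell, and medians were 0.15, 0.030 and 0.22. There Psma1 (-0.22), Psma3 (-0.079), Psma4 (-0.14), Psma6 (-0.13), Psmb5 (-0.034), Psmb7 (-0.024), Psmd6 (-0.20), Psmd10 (-0.23), Psmd11 (-0.0001), Psmd12 (-0.064) and Nfe2l1 (0.054) changed sign. These 2 fits were added after the data were seen, and the cause of these shifts was not tested.

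Leaving out each replicate in turn gave 26 to 28 members higher and 1 to 2 lower, with 1 to 2 regulatory members lower, and medians of 0.36 to 0.38 over all and in the regulatory particle. Psma3 lost its call without Gsdmd-/- replicate 1 or without WT replicate 2 or 3 (limma, adjusted p = 0.0547, 0.0536 and 0.0709). Psmd14 lost its call without Gsdmd-/- replicate 1, Psmd6 passed without Gsdmd-/- replicate 3 and Psmd12 without WT replicate 1 (limma, adjusted p = 0.0547, 0.0216 and 0.022). The log2 difference of Psmb8 over Psmb5 ranged from -0.022 to 0.028. The number of samples limits the exact tests, which cannot go below 0.1.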
